A study of Rattus norvegicus with 6 samples.

Results

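The neuregulin and ErbB receptor genes are a family of growth factor receptors with their ligands and modulators, and 9 symbols were chosen by name: the receptors Egfr, Erbb2, Erbb3 and Erbb4, the ligands Nrg1, Hbegf and Btc, the scaffold gene Erbin and the inhibitor gene Errfi1. Of these 9, 8 were found among the 17487 gene symbols of the count table, and Erbin, which was not, has no expression values here. RNA came from the heart of 6 adult male Wistar rats, an outbred strain, with 1 library per animal. The doxorubicin group, 3 rats whose hearts are called treated below, had doxorubicin hydrochloride, an anthracycline chemotherapy drug, at 3.75 mg/kg into the tail vein each week for 4 weeks. The control group, 3 rats, had the vehicle, 0.9% sodium chloride, on the same schedule. The region of the heart, the interval between the last injection and collection, and the hour of collection were not given in the sources used here.

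ErbB receptors are tyrosine kinases that work as pairs. Neuregulin-1, made in the heart mainly by endothelial cells, binds ErbB4 and ErbB3. ErbB2 has no ligand of its own and serves as the partner of the others, while ErbB3 has a weak kinase and signals through its partner. EGFR takes EGF, TGF-alpha, amphiregulin, HB-EGF and betacellulin, and the last 2 also bind ErbB4. In the adult heart the pathway is known for keeping cardiomyocytes alive under stress, and antibodies against ErbB2 add to the cardiac toxicity of anthracyclines in patients.

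Total counts per library ran from 2219685 to 3508282, so the floor used here, 3 counts, was 0.855 to 1.35 CPM, the count scaled to a common library total. Levels below are CPM scaled by trimmed mean of M-values (TMM), a correction for library composition. Cardiomyocyte markers, 11 of 12 of them with a row, summed to 144332 to 168277 CPM in control and 118634 to 134810 CPM in treated hearts, so the defining transcripts of the labelled tissue were present, and the sums of the groups did not overlap. Control library 1 stood apart in an atrial marker: Myl7, the atrial myosin light chain gene, was at 164 CPM there and at 2.06 to 6.42 CPM in the other 5 libraries. Of 9205 symbols tested by edgeR's quasi-likelihood test, 5 (0.0543%) passed a Benjamini-Hochberg adjusted p of 0.05, and 746 (8.1%) had an unadjusted p under 0.05. All 3 doxorubicin values lay on the same side of all 3 control values for 1238 symbols (13.4%).

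No member of the family passed the adjusted threshold. A filter on low counts left 4 of the 8 for the test, Erbb2, Erbb3, Hbegf and Errfi1, and edgeR called 0 of the 4, with 0 at an unadjusted p under 0.05. DESeq2, run without the filter, gave an adjusted p for the same 4 and called 0 of them, where it called 0.811% of 9253 symbols. Of all 8, 0 had an unadjusted p under 0.05 there, against 723 of 13050 symbols. In the same order, limma voom gave 0 and 0 of the 4, against 0 and 740 of 9205 symbols. Without the filter edgeR called 0 of the 8, where 0.467% of 13050 symbols were called, and 2 members, Egfr and Hbegf, had an unadjusted p under 0.05, against 7.49% of all symbols. The groups overlapped for each of the 4 members tested. The 4 members the filter removed were Egfr and Erbb4, which had 2 to 14 counts per library, and Nrg1 and Btc, which did not pass the floor in any library.

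Because the table lists no transcript lengths, levels are compared between groups for a gene and not between genes. Where a gene is named for the highest CPM of its list, that served only to choose which gene to name and ranks no levels.

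The stretches before the annotated start of 3 members are printed because these genes took different courses across the libraries: Hbegf and Egfr were highest in doxorubicin library 1, and Errfi1 was highest in control library 3. They are from RefSeq, build GRCr8, whereas the counts were made on mRatBN7.2 per the submitters' processing notes, and 7 of the 9 symbols had an entry. Each is the 250 bases upstream of the start, and capitals mark a match, on either strand, to any of 7 motifs. The motif GGGCGG is that of Sp1 and TATAAA is the TATA box. The Egr motif is GCGNGGGCG and the cyclic AMP motif is TGACGTCA. The AP-1 motif is TGANTCA, the E-box is CACGTG, and the seventh is the CArG box of serum response factor.
Hbegf (chr18:28390221-28390470, minus strand): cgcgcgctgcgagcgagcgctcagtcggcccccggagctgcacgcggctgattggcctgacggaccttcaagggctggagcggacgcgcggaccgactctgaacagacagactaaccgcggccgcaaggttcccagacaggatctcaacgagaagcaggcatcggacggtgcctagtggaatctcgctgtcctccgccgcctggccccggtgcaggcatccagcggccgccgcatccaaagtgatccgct
Egfr (chr14:95378376-95378625, plus strand): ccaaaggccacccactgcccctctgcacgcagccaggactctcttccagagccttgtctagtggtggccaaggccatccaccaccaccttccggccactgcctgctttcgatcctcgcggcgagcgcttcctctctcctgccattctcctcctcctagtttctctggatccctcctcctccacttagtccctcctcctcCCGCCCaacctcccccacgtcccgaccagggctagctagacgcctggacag
Errfi1 (chr5:166606591-166606840, plus strand): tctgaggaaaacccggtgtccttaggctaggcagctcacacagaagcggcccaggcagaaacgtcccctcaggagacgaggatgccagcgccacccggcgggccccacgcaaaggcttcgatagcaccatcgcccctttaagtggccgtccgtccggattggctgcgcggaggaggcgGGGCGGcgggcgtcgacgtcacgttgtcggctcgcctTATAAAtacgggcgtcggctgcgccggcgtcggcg
The Hbegf stretch held none of the 7 motifs, Egfr held 1 GGGCGG match, and Errfi1 held 1 GGGCGG and 1 TATAAA match. Of all 33469 RefSeq stretches of the same length, 30.5% held the Sp1 motif, 12.9% the TATA box, 6.34% the AP-1 motif, 5.59% the E-box, 4.29% the Egr motif, 1.59% the cyclic AMP motif and 1.5% the CArG box. The Egr and Sp1 motifs can overlap. The stretches of Erbb2, Erbb4 and Btc each held 1 GGGCGG match and none of the other motifs. That of Erbin, at 82.8% G and C, held 5 GGGCGG and 3 Egr matches. By the RefSeq limits of the genes, the stretches of Erbb2 and Erbb4 run partly into the gene, and that of Erbin lies within it. The 3 printed windows were rich in G and C, at 67.6% for Hbegf, 63.6% for Egfr and 67.2% for Errfi1, against a median of 51.2%. A match is a run of letters, and no binding was measured.

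Among the receptors, Erbb2, the shared partner, had the most reads, 40 to 105 counts per library. Its level was 27.5, 17.8 and 28.4 CPM in control hearts 1, 2 and 3 and 33.7, 16.2 and 27.7 CPM in treated hearts 1, 2 and 3. Control library 2 and doxorubicin library 2, which the labels do not pair, were each the lowest of their group. The doxorubicin values spanned the control values at both ends. Group means were 24.6 ± 5.89 and 25.9 ± 8.88 CPM (SD, n = 3). The log2 fold change was 0.07 (SE 0.29, 95% interval -0.56 to 0.69), with an edgeR adjusted p of 0.974, and it turned to -0.10 without control library 2 and to -0.16 without doxorubicin library 1. That interval covers 0.676-fold to 1.62-fold of control, so larger shifts of Erbb2 in either direction lie outside it.

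Erbb4, the neuregulin receptor of cardiomyocytes, rested on few reads: 6, 5 and 3 counts in control hearts 1, 2 and 3 and 3, 10 and 10 in treated hearts 1, 2 and 3. These correspond to 2.29, 2.22 and 0.852 CPM in control and 0.963, 3.12 and 2.95 CPM in treated hearts. Doxorubicin libraries 2 and 3 lay above all controls, and doxorubicin library 1 lay among them. Without the filter the log2 fold change was 0.45 (SE 0.71, 95% interval -0.97 to 1.86), with an edgeR adjusted p of 0.887. Summed over a group's reads, 23 counts in doxorubicin against 14 in control gave a ratio of 1.51 (95% exact interval 0.743 to 3.17, counting error only). A shift of Erbb4 within these limits was not detectable at this depth.

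The balance of Erbb4 to Erbb2, taken within a library so that scaling between libraries drops out, was a log2 count ratio of -3.58, -3.0 and -5.06 in control hearts 1, 2 and 3. In treated hearts 1, 2 and 3 it was -5.13, -2.38 and -3.23. The lowest values of both groups were alike, and the groups overlapped over nearly their whole range. The mean difference was 0.3 (2-sided exact permutation test, p = 0.8, n = 3 per group, with 0.1 the smallest p possible), and it turned to -0.288 without control library 3 and to -0.3 without doxorubicin library 2.

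Erbb3, the receptor with the weak kinase, had 2, 11 and 12 counts in control hearts 1, 2 and 3 and 11, 9 and 11 in treated hearts 1, 2 and 3. In CPM these were 0.764, 4.89 and 3.41 in control and 3.53, 2.81 and 3.24 in doxorubicin libraries. The doxorubicin values sat close together inside the control range, and the spread of the control group came from control library 1, the library with high Myl7. The log2 fold change was 0.09 (SE 0.56, 95% interval -1.12 to 1.30), with an edgeR adjusted p of 0.979, and without control library 1 it was -0.34. Erbb3 is known from Schwann cells, the glia of peripheral nerve. Of 10 Schwann cell markers 9 had a row, and the list summed to 72.1 to 92.8 CPM in control and 70.9 to 98.3 CPM in treated hearts. Sox10, a transcription factor of that lineage named after its values were seen, was at 5.35, 15.5 and 5.96 CPM in control and 6.1, 9.36 and 10.9 CPM in treated hearts. Control library 2 was highest for both Erbb3 and Sox10, and control library 1 was lowest for both. Other markers of the list were divided. Control library 1 was highest of all libraries for S100b (6.11 CPM) and Gfra3 (14.1 CPM), and highest of the controls for Pmp22 (64.2 CPM). It was lowest for Cdh19 and Mbp, at 0 counts there and at most 11 and 4 elsewhere. S100b, Cdh19 and Mbp are also named after their values were seen. The part of such cells in the Erbb3 values was not tested.

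Egfr, the receptor of the EGF-type ligands, was near the floor in control hearts. It had 2, 2 and 3 counts in control hearts 1, 2 and 3 and 14, 2 and 10 in treated hearts 1, 2 and 3, or 0.764, 0.889 and 0.852 CPM against 4.49, 0.624 and 2.95 CPM. Doxorubicin libraries 1 and 3 were above all controls, while doxorubicin library 2 was below them. The filter removed Egfr. Without it the log2 fold change was 1.64 (SE 0.80, 95% interval 0.04 to 3.25), with an edgeR adjusted p of 0.643 and an unadjusted p of 0.0454. Over the group totals, 26 counts in doxorubicin against 7 in control gave a ratio of 3.41 (95% exact interval 1.44 to 9.3). That interval covers counting error only and leaves out the spread between animals. Without doxorubicin library 1 the log2 fold change was 1.08, and DESeq2 gave 1.69 at an unadjusted p of 0.0983. In bulk tissue, more cells that carry a transcript and more of it per cell cannot be told apart, and this holds for each value here.

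**Figure D1:**
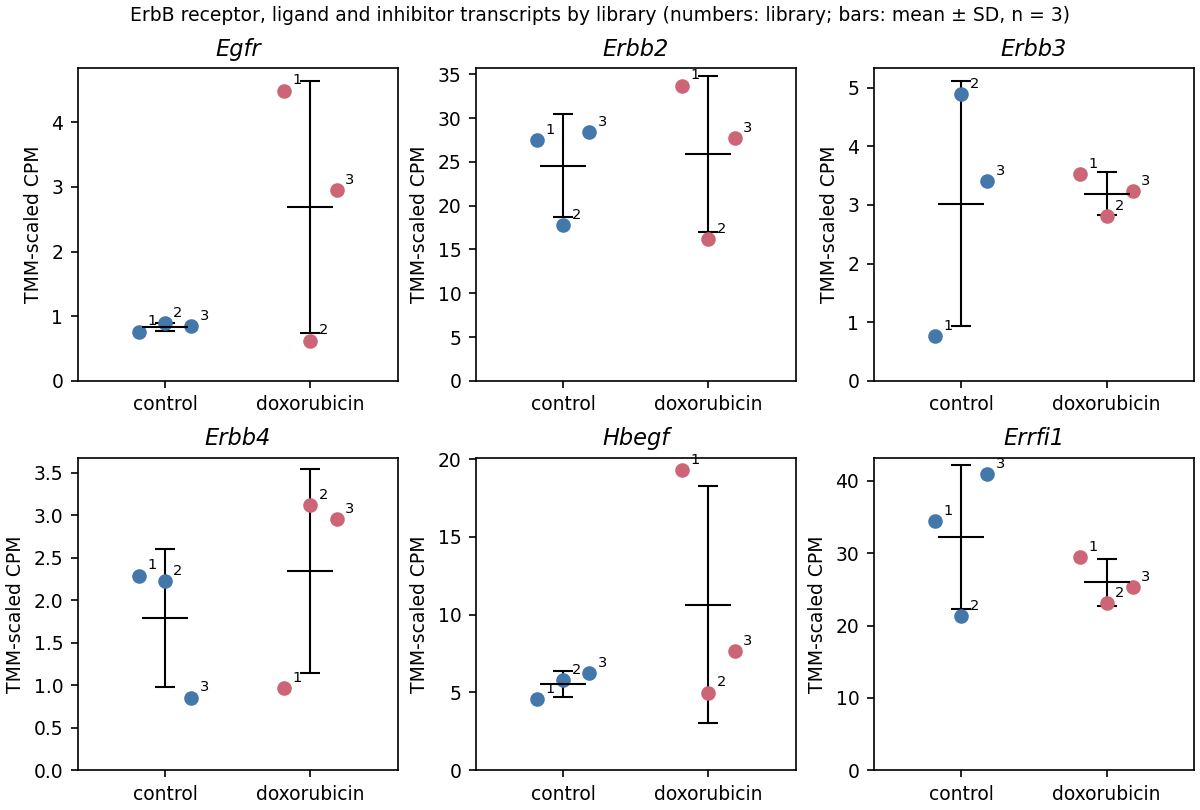
TMM-scaled CPM (y axes, linear, from 0) of 6 genes in each of the 3 control and 3 doxorubicin libraries; points are libraries, marked with their number, and bars are the mean ± SD (n = 3). Egfr and Hbegf are highest in doxorubicin library 1, at 4.49 and 19.3 CPM, and the value of doxorubicin library 2 is 0.624 CPM for Egfr and 4.99 CPM for Hbegf, not above the control range.

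Of the ligands, Hbegf, which encodes heparin-binding EGF-like growth factor, had the most reads. It had 12, 13 and 22 counts in control hearts 1, 2 and 3 and 60, 16 and 26 in treated hearts 1, 2 and 3. The levels were 4.58, 5.78 and 6.25 CPM in control and 19.3, 4.99 and 7.66 CPM in treated hearts. Doxorubicin library 1 was far above the rest, doxorubicin library 3 was above all controls, and doxorubicin library 2 lay within the control range. Group means were 5.54 ± 0.858 and 10.6 ± 7.58 CPM (SD, n = 3), and the log2 fold change was 0.93 (SE 0.48, 95% interval -0.10 to 1.95) at an edgeR adjusted p of 0.644 and an unadjusted p of 0.0722. Without doxorubicin library 1 the log2 fold change was 0.19, and without doxorubicin library 2 it was 1.28 at an edgeR adjusted p of 0.342. The difference of the means was larger than the SD of the control hearts and smaller than the SD of the treated hearts. Over the group totals, 102 counts in doxorubicin against 47 in control gave a ratio of 1.99 (95% exact interval 1.4 to 2.88). That interval covers counting error only and leaves out the spread between animals. In 3 of 19 alternatives the edgeR unadjusted p was under 0.05, and in 0 did Hbegf pass the adjusted threshold.

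Endothelial cells and macrophages are known sources of HB-EGF. All 12 endothelial markers had reads, and they summed to 1985 to 2187 CPM in control and 1601 to 2176 CPM in treated hearts. The 12 macrophage markers summed to 273.0 to 286.0 CPM in control and to 328.0, 540.0 and 370.0 CPM in treated hearts 1, 2 and 3. The macrophage sums of the groups did not overlap. Among treated hearts, every marker of the list except Cd163 and Mertk was highest in library 2, where Hbegf was lowest. Lyz2 was at 126, 225 and 164 CPM in treated hearts 1, 2 and 3. Only Cd163 took the order of Hbegf, at 16.7, 8.11 and 13.6 CPM (3.05, 9.77 and 4.83 CPM in control hearts). Mertk was at 3.21, 4.37 and 5.31 CPM in treated hearts. Cd163 and Mertk are named after their values were seen. The part of these cells in the Hbegf values was not tested. The genes with the pattern closest to Hbegf over the 6 libraries were Inka2 and Cry2, among 7415 symbols with a mean of at least 10 CPM. Likeness was the root mean square difference of log2 CPM after centring each gene on its mean, 0.164 for Inka2 and 0.197 for Cry2, against a median of 0.694. Cry2 is a repressor of the circadian clock and Inka2 encodes an inhibitor of the kinase PAK4. Inka2 was at 81.7, 93.3 and 78.1 CPM in control and 236.0, 80.5 and 111.0 CPM in treated hearts 1, 2 and 3. Cry2 was at 64.2, 82.6 and 58.5 CPM in control and 214.0, 55.5 and 89.3 CPM in treated hearts 1, 2 and 3. All 3 genes peaked in doxorubicin library 1, and doxorubicin library 2 lay within the control range for Hbegf and Inka2 and below it for Cry2. Nppa, the atrial natriuretic peptide gene, also stood highest in doxorubicin library 1: it was at 444, 376 and 161 CPM in control and 3252, 277 and 902 CPM in treated hearts 1, 2 and 3. Its order over the treated hearts was that of Hbegf and Egfr, whereas over the control hearts its order was the reverse of that of Hbegf. Whether these genes share anything in that library was not tested.

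**Figure D2:**
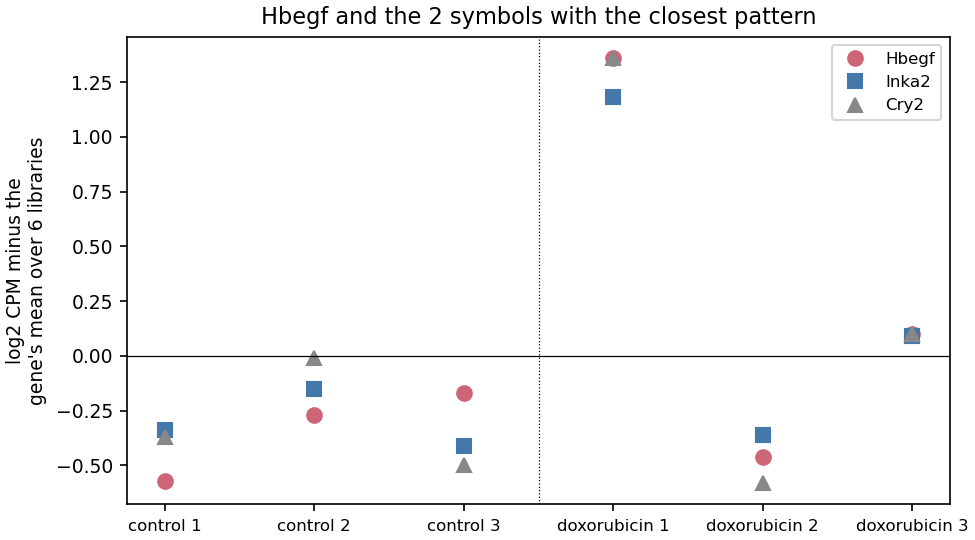
Log2 CPM of Hbegf, Inka2 and Cry2 minus each gene's mean over the 6 libraries (y axis), by library (x axis, controls left of the dotted line). Doxorubicin library 1 stands out at 1.36 for Hbegf, 1.18 for Inka2 and 1.36 for Cry2, while doxorubicin library 2 lies within the control range for Hbegf (-0.46) and Inka2 (-0.36) and below all controls for Cry2 (-0.58).

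The search covered the 3 members with at least 10 counts in every library, which leaves out Erbb3, Egfr and Erbb4. It gave Egr1 (0.089) and Noct (0.106) for Erbb2, and Gtf2h4 (0.063) and Top3b (0.09) for Errfi1. Egr1 is an immediate-early transcription factor, and it stood at 12.2, 6.66 and 11.1 CPM in control and 13.2, 6.86 and 10.3 CPM in treated hearts 1, 2 and 3. As for Erbb2, control library 2 and doxorubicin library 2 were each the lowest of their group. Noct, which encodes nocturnin and has a daily rhythm in many tissues, was at 24.1, 15.1 and 19.9 CPM in control and 28.6, 13.1 and 23.9 CPM in treated hearts. Closest patterns were searched in the same 6 libraries and describe them only.

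Nrg1, the gene of the main cardiac ligand of ErbB4, stood on 14 rows, the most of any symbol, and 12 of the 14 were at 0 in all libraries. The rows together held 3 counts: 2 in control library 2 and 1 in doxorubicin library 3. The table appeared to list a gene once for each curated RefSeq transcript. Of 587 symbols on several rows that matched the RefSeq list of GRCr8, 554 (94.4%) had as many rows as curated transcripts there, and Nrg1 has 14. Of the 599 symbols on several rows, 48.6% were at 0 in all libraries, against 24.5% of the 16888 symbols on 1 row. How the counting treated reads shared by rows was not given in the sources used here. The value of Nrg1 is therefore a count of the reads these rows received, and no level of neuregulin-1 RNA or difference between groups is read from it.

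**Figure D3:**
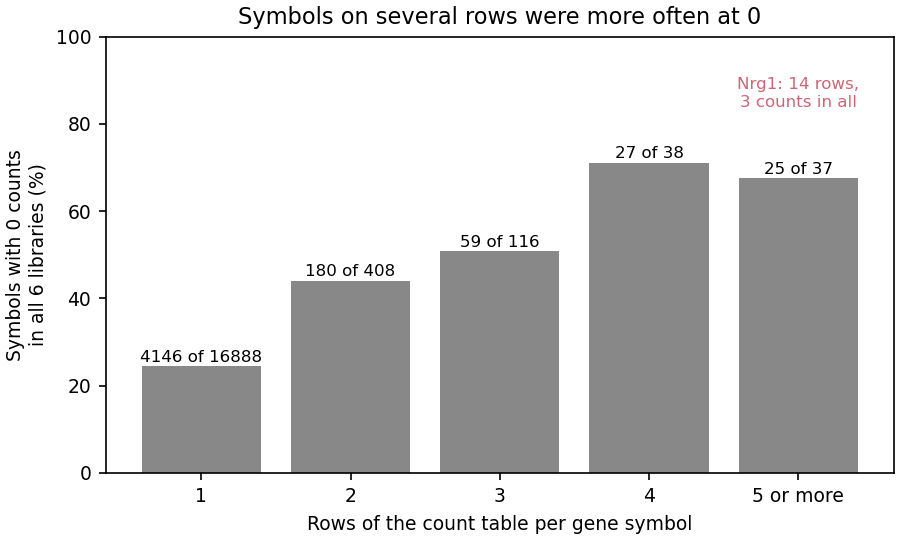
Share of gene symbols with 0 counts in all 6 libraries (y axis, percent) by the number of table rows per symbol (x axis), with the number of symbols above each bar. The share was 24.5% for symbols on 1 row and 67.6% for those on 5 or more rows, the class that holds Nrg1.

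Btc, which encodes betacellulin, stood on 1 row and had 1 count in all, in doxorubicin library 2. Its 0 counts among 8670982 control reads allow a level of up to 0.346 CPM by the floor of 3 counts over the group, and the exact 95% Poisson upper limit is 0.425 CPM, both per total counts without TMM scaling. For both Nrg1 and Btc no fold change is given, since neither group passed the floor.

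Errfi1 encodes a feedback inhibitor, also called MIG6, that binds the kinase domain of EGFR and ErbB2 after activation. It had 48 to 144 counts per library. Its level was 34.4, 21.3 and 40.9 CPM in control and 29.5, 23.1 and 25.3 CPM in treated hearts 1, 2 and 3. The doxorubicin values lay close together inside the wider control range. Means were 32.2 ± 9.96 and 26.0 ± 3.27 CPM (SD, n = 3), and the log2 fold change was -0.32 (SE 0.26, 95% interval -0.88 to 0.23) with an edgeR adjusted p of 0.786. It ranged from -0.53 without control library 2 to -0.11 without control library 3. For Errfi1, as for Erbb2, control library 2 and doxorubicin library 2 were each the lowest of their group, and the labels do not pair these animals.

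**Figure D4:**
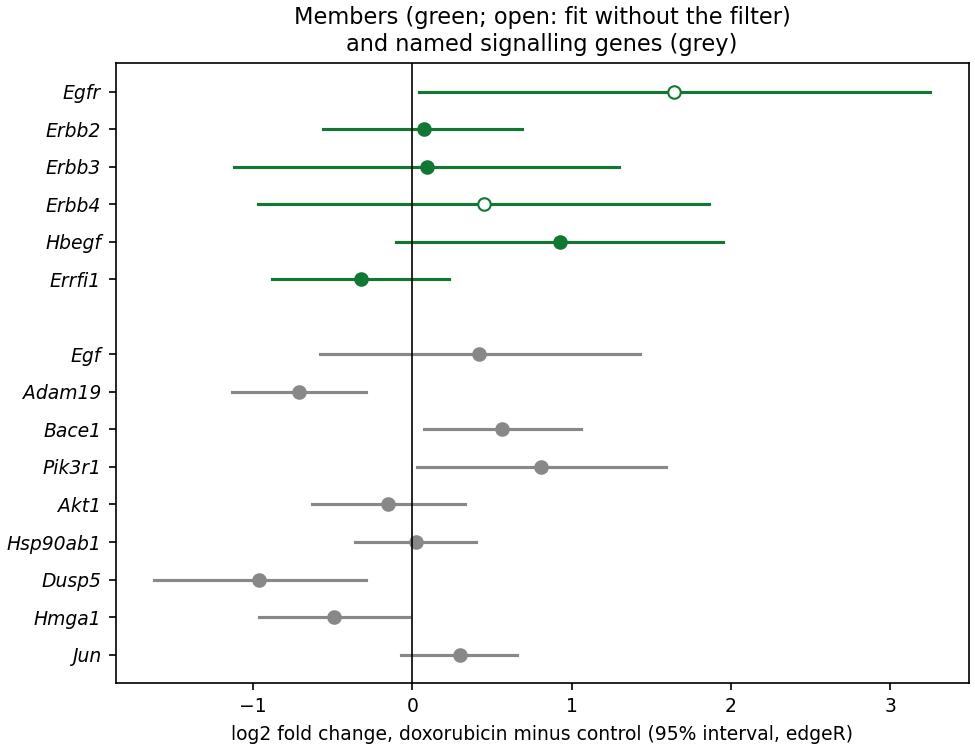
Log2 fold change of doxorubicin minus control with its 95% interval from edgeR (x axis) for 6 members (green; open points from the fit without the filter) and 9 genes of the other signalling lists (grey). The intervals of Erbb2, Erbb3, Erbb4, Hbegf and Errfi1 include 0, and that of Egfr starts at 0.04.

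The rest of the pathway was taken from 5 lists of 91 genes, of which 85 had a row and 66 passed the filter. None of the 66 passed the adjusted threshold in edgeR, and 5 had an unadjusted p under 0.05. DESeq2, run without the filter, and limma voom also called 0 genes of the lists. At an unadjusted p under 0.05 DESeq2 had 3 list genes, against 723 of 13050 symbols. Limma voom had 5, against 740 of 9205. The median log2 fold change was 0.05, against 0.02 for the whole table. Of the 5 from edgeR, 2 were higher and 3 lower in treated hearts, where 4% of the whole table was higher and 4.11% lower at that p. For 10 of the 66 the groups stood apart without overlap, as 13.4% of the table did.

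Other ligands were at or near the floor. Egf had 5, 7 and 12 counts in control and 13, 13 and 11 counts in treated hearts 1, 2 and 3. It was the only gene of the 8 on that list to pass the filter, and its log2 fold change was 0.42 (SE 0.47; edgeR adjusted p 0.849). Tgfa had 1 to 7 counts per library, Areg 0 to 1, Nrg2 0 to 5 and Nrg4 0 to 2, and Ereg and Epgn were at 0 in all libraries. For Tgfa, Nrg2 and Nrg4 no difference was detectable at these counts.

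Among 8 tested proteases that cut ligands or receptors, 1 was higher and 1 was lower in treated hearts at an unadjusted p under 0.05, and the groups did not overlap for these same 2. Adam19, a metalloprotease that cleaves neuregulin precursors, was at 168, 178 and 187 CPM in control and 101, 138 and 88.1 CPM in treated hearts 1, 2 and 3. All doxorubicin values were below all controls. The gap between the groups was wider than the spread of the controls and narrower than the spread of the treated hearts. The log2 fold change was -0.71 (SE 0.20), with an edgeR unadjusted p of 0.0029 and adjusted p of 0.249, the smallest of the 66. Over the alternatives its adjusted p ran from 0.0947 to 0.688. Bace1, a secretase that also cuts neuregulin-1, was at 23.3, 17.8 and 22.2 CPM in control and 28.6, 30.0 and 35.1 CPM in treated hearts. Its log2 fold change was 0.56 (SE 0.23), with an edgeR adjusted p of 0.542. The list's median was 0.04.

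Adaptors and kinase relays that carry the signal inward had a median of 0.04 over 25 tested genes, with 14 above and 11 below 0. Pik3r1, the regulatory subunit of phosphoinositide 3-kinase, was the only gene of that list with an unadjusted p under 0.05. It was at 11.5, 32.4 and 23.3 CPM in control and 29.5, 28.4 and 58.9 CPM in treated hearts 1, 2 and 3, with control library 2 above 2 of the doxorubicin values. Its log2 fold change was 0.81 (SE 0.36, edgeR adjusted p 0.592), which was 0.387 without doxorubicin library 3 and 0.505 without control library 1. Akt1, named for the highest CPM of the list, was at 350 ± 114 and 315 ± 37.4 CPM (SD, n = 3), and its log2 fold change of -0.15 turned to 0.15 without control library 1. Ptpn11 and Araf, each on 2 rows, were at 0 in all libraries, and Hras and Shc1, also on 2 rows, had at most 1 and 6 counts.

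Genes of receptor turnover and negative control had a median log2 fold change of 0.12 over 17 tested, between -0.26 and 0.44, with 13 above and 4 below 0 and none at an unadjusted p under 0.05. Hsp90ab1, a chaperone that keeps ErbB2 folded, was at 2231 ± 131 and 2260 ± 248 CPM (SD, n = 3). Its log2 fold change was 0.02 (SE 0.18) and turned to -0.024 without control library 1 and to -0.056 without doxorubicin library 2.

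Early transcriptional targets of ErbB and MAP kinase signalling had a median of 0.0 over 15 tested genes, 8 above and 7 below 0, with 0 higher and 2 lower at an unadjusted p under 0.05. Dusp5, a nuclear phosphatase of ERK, was at 93.2, 52.9 and 57.6 CPM in control and 19.3, 48.4 and 37.1 CPM in treated hearts 1, 2 and 3. The log2 fold change of Dusp5 was -0.96 (SE 0.31, edgeR adjusted p 0.378). Doxorubicin library 1, the library with the most Hbegf and Egfr, had the least Dusp5 and the least Hmga1. Other tested genes of the list were highest in that library: Ccnd1 (193 CPM), Phlda1 (150 CPM), Klf6 (87.3 CPM), Egr1 (13.2 CPM) and Myc (12.8 CPM). These were named after their values were seen, and no link between these genes and Hbegf or Egfr was tested. Hmga1, a chromatin protein gene, was at 63.4, 48.9 and 48.8 CPM in control and 29.5, 41.2 and 43.9 CPM in treated hearts, a log2 fold change of -0.49 (edgeR adjusted p 0.594). Jun, named for the highest CPM of the list, was at 155 ± 13.3 and 190 ± 8.33 CPM (SD, n = 3), and its log2 fold change was 0.30 (SE 0.17, edgeR adjusted p 0.689). In 6 of the 15 the groups stood apart, where 13.4% of the whole table did: besides Dusp5, Hmga1 and Jun, these were Dusp6 (-0.51, lower in doxorubicin), Myc (0.47) and Ier3 (0.47), named after their values were seen. Of these 6, 3 were higher and 3 lower in doxorubicin.

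Remaining marker lists are given by their summed CPM in control and then treated hearts, with the 2 genes of the highest CPM, uncorrected for length. Fibroblast markers (Gsn and Col3a1) summed to 6269 to 6718 and 5665 to 8258. Mural cell markers (Abcc9 and Acta2) summed to 632.0 to 972.0 and 744.0 to 991.0, and endocardial markers (Cytl1 and Nfatc1) to 48.3 to 78.6 and 53.0 to 88.3. Neuronal markers (Prph and Dbh) reached at most 27.5 in any library, and epicardial markers (Wt1 and Msln) to 29.4 to 40.6 and 23.9 to 30.8. Adipocyte markers (Fabp4 and Adipoq) summed to 814.0 to 1079 and 651.0 to 750.0, without overlap, and almost all of this sum was Fabp4. Adipoq had 0 to 7 counts per library, Plin1 0 to 1 and Lep 0 to 2, and Cidec was at 0 in all libraries. Erythroid markers (Hba-a1 and Hba-a2) summed to 1984 to 7171 and 681.0 to 2641. Atrial markers (Nppa and Myl7) summed to 187.0 to 700.0 and 287.0 to 3286. The highest sum, in doxorubicin library 1, was almost all Nppa, at 3252 CPM. Myl4 was at 26.0 and Myl7 at 6.42 CPM in that library, against 68.4 and 164 CPM in control library 1. In the lists named earlier, the leading genes were Actc1 and Mb for cardiomyocytes, Eng and Pecam1 for endothelial cells, Lyz2 and C1qc for macrophages, and Pmp22 and Gfra3 for Schwann cells. The part of cell makeup in the members' values was not tested.

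**Figure D5:**
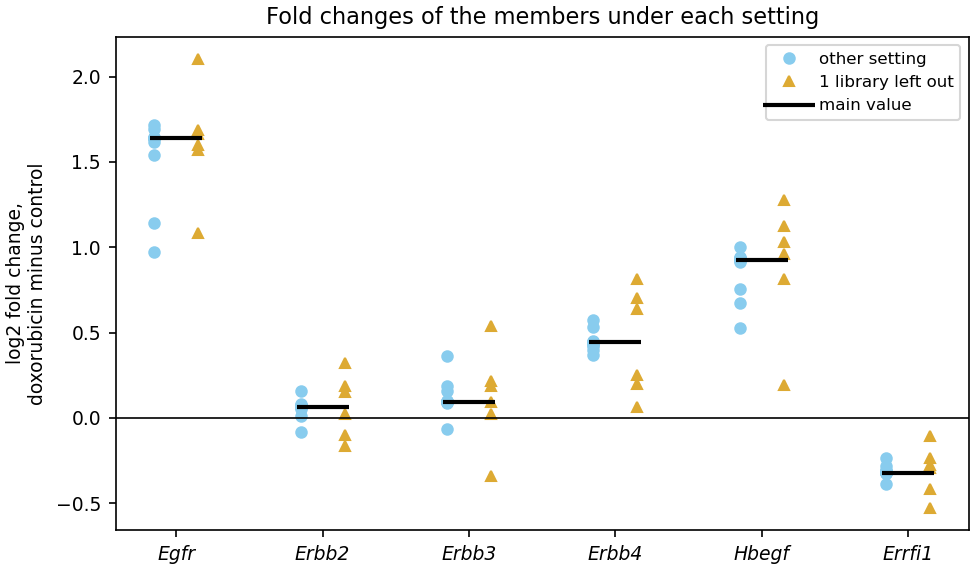
Log2 fold change of doxorubicin minus control (y axis) for 6 members under every setting run; black lines are the values given in the text, circles are other settings and triangles are fits with 1 library left out. Hbegf drops to 0.19 without doxorubicin library 1, Egfr stays above 0, and Erbb2 and Erbb3 fall on both sides of 0.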

How the data were processed

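The authors deposited raw read counts for 6 libraries, 1 per rat, in a single table with no normalization. Per the submitters' processing notes, FastQC, Trimmomatic, STAR and HTSeq and the build mRatBN7.2 were used; versions, counting mode, use of strand and annotation were not given in the sources used here. Rows of a symbol were summed, and Nrg1 was the member on several rows. Libraries of a group differed by more than sampling noise (chi-square per degree of freedom of at least 4.11).

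Groups came from the sample titles. Counts were fitted with edgeR 4.0.16 (R 4.3.3), quasi-likelihood test, TMM factors of 0.892 to 1.05, robust dispersion, and filterByExpr (minimum count 10, minimum total 15), over all symbols, with Benjamini-Hochberg adjustment and a threshold of 0.05. The fit was tested on simulated data. The SE is the log2 fold change over the root of F. Log2 CPM used a prior count of 2. Egfr and Erbb4, which the filter removed, are given from the fit without it. Intervals are at the 95% level, and intervals and floors from counts cover counting error only. P-values set the difference of the groups against the spread between these animals, and in edgeR the estimate of that spread draws partly on all symbols. DESeq2 1.42.0 and limma 3.58.1 were alternatives. Tables, exact tests and figures used Python 3.11.15 with pandas 2.3.3, scipy 1.17.1 and matplotlib 3.10.9.

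The members and lists were chosen with earlier results of these data known. Single results for some marker genes are not reported here. Named genes were the members; from each of the 5 signalling lists the genes past the threshold, up to 4 with the smallest unadjusted p under 0.05 and the gene of the highest mean CPM; the 2 genes of the highest mean CPM in each of 12 marker lists; and the 2 symbols closest in pattern to each of 3 members. Further genes were picked with their values in view. Replicate numbers come from the titles, and the labels describe no pairing.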

Additional observations from a re-analysis of the deposited data

How the results depend on the processing

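Members past the adjusted threshold numbered 0 under each of the 19 alternatives, and so did the genes of the 5 signalling lists. The count over all symbols, 5, was 0 with library size only (713 at an unadjusted p under 0.05) and 0 with limma voom (740), 1 each with a mean CPM of at least 5, non-robust dispersion or only symbols on 1 row, 13 with the replicate block, 14 with voom and sample quality weights, 61 with no filter and 75 with DESeq2, and 0 to 35 with 1 library left out. Of the 6 fits with a library left out, 4 gave 0, with 531 to 636 at an unadjusted p under 0.05. Library size only moved the median of all symbols from 0.02 to 0.10.

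Hbegf (0.19 to 1.27), Errfi1 (-0.53 to -0.11), Egfr (0.97 to 2.10) and Erbb4 (0.06 to 0.81) kept their direction; the alternatives for Egfr and Erbb4, run without the filter, were chosen after the data were seen. With sample quality weights Erbb2 became -0.082, Erbb3 -0.062 and Akt1 0.063. With a library left out the log2 change ran from -0.162 to 0.32 for Erbb2 (-0.101 without control library 2), from -0.341 to 0.54 for Erbb3, from -0.32 to 0.148 for Akt1 and from -0.056 to 0.10 for Hsp90ab1 (-0.024 without control library 1), and the Erbb4 to Erbb2 ratio from -0.3 to 1.08 (-0.288 without control library 3). The cause was not tested. With the replicate block Hbegf was 0.758 (edgeR adjusted p 0.84). Same-numbered libraries did not deviate together (correlations -0.185 to 0.021 over 3 pairs), and the block changed no call of a member. Depth leaves no fold change for Nrg1 and Btc, at 0 to 2 counts per library, and limits Egfr, Erbb3 and Erbb4, at 2 to 14.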
